A study of Homo sapiens with 4 samples.

Results

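Described here are 32 genes of the core cyclin-CDK engine of the cell cycle: cyclins, cyclin-dependent kinases (CDKs), CDK inhibitors, the CDC25 phosphatases and the proteins that act directly on them. They were chosen by name, and each symbol was matched through the GENCODE 44 annotation to an Ensembl identifier in a table of 64252 genes. All 32 were found. The RNA came from SK-N-BE(2), an established human neuroblastoma cell line, from cells stably infected with lentivirus carrying a scrambled shRNA (sh-Scb, the control) or an shRNA against SAPCD2 (sh-SAPCD2), with 2 libraries per group. Both groups therefore carried a lentiviral shRNA and had passed puromycin selection, and they differed by the shRNA. The labels name the shRNA only as sh-SAPCD2, no library came from cells with SAPCD2 restored, and nothing in the labels says that the 2 libraries of a group came from separate infections, so the p-values measure the spread between libraries, which may be technical. The comparison addresses how the transcripts of the cell cycle engine differ once SAPCD2, a regulator of spindle orientation, is reduced.

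As background, a cyclin is the regulatory subunit that switches on a CDK and directs it to substrates. D-type cyclins with CDK4 or CDK6 act in G1, E-type cyclins with CDK2 at entry into S phase, cyclin A with CDK2 and then CDK1 through S and G2, and B-type cyclins with CDK1 in mitosis. WEE1 and PKMYT1 hold CDKs inactive by phosphorylation and CDC25 phosphatases remove those phosphates, while INK4 proteins block CDK4 and CDK6 and CIP/KIP proteins bind cyclin-CDK complexes. Neuroblastoma is known for high activity of the CDK4 and CDK6 arm and for genes of this engine that are driven by E2F and MYCN.

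The libraries held 25347900 to 31850997 counts, so that 3 counts, set as the detection floor, came to 0.0954 to 0.118 CPM (counts scaled by TMM to a common library size). This floor covers counting error only. SAPCD2, the targeted gene, had 83.4 and 82.1 CPM in the sh-Scb libraries and 35.3 and 52.4 CPM in the sh-SAPCD2 libraries, a log2 fold change of −0.91 ± 0.19 (SE, n = 2 per group) with an adjusted p of 0.0206 in edgeR's quasi-likelihood test. All 8 adrenergic neuroblastoma markers were detected. Their summed level was 2787 to 2874 CPM in sh-Scb and 2256 to 2999 CPM in sh-SAPCD2. The summed level of 6 mesenchymal markers was 1234 to 1250 CPM in sh-Scb and 562 to 593 CPM in sh-SAPCD2, nearly all of it VIM, while PRRX1, a defining marker, was at 0 in every library. Of the markers of other cell types, CD3E and CDH1 were at 0 throughout, PTPRC lay between 8.93 and 12.3 CPM, the epithelial sum between 3.47 and 5.05 CPM and the endothelial sum at no more than 0.890 CPM. CD68 and VWF lay under the detection floor in both sh-Scb libraries. In sh-SAPCD2, CD68 was at 0.434 and 0.382 CPM and VWF at 0.552 and 0.890 CPM. Their log2 fold changes were 2.81 and 3.25, with adjusted p of 0.0372 and 0.0170 in the same edgeR test. The part of these marker differences in the results below was not tested.

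In SAPCD2-knockdown cells, 12 members fell and 4 rose, and 14 more were tested without passing. The 12 that fell were the S-phase kinase CDK2 and the mitotic kinase CDK1, the G1 kinase CDK6, the cyclins CCNA2, CCNE2 and CCNF, the phosphatase CDC25A, the CDK adaptor CKS1B and its ligase partner SKP2, MNAT1, CDKN3 and the inhibitor CDKN1A. The 4 that rose were CCND1, CCNG1 and the inhibitors CDKN1B and CDKN1C. These calls took an adjusted p under 0.05 in the quasi-likelihood test of edgeR, adjusted by the Benjamini-Hochberg method for the 18779 genes that passed the filter on low counts. CCND2 and CDKN2B did not pass that filter and were not tested. Across all genes tested, 12.5% were lower and 12.4% were higher at the same threshold.

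An absolute log2 fold change over 1 was then added, the threshold the study used with DESeq2 for differentially expressed genes (DEGs). In the edgeR test used here, 3 members were lower (CDK2, CDK1 and CDKN1A) and 1 was higher (CDKN1C). Among all genes tested, 5.15% were DEGs in the lower direction and 4.69% in the higher direction. The members past this threshold depended on the fit. With a correction for GC content and length, CDK1 was at −0.87 and CDKN1C at 0.81. In that fit CDK2 was at −1.47, CDKN1A at −1.65, CCNF at −1.06 and PKMYT1 at −1.37. The median log2 fold change of the 30 tested members was −0.35, beside 0.02 over all genes tested, and 19 of the 30 had a value below 0. The libraries of the groups did not overlap for 25 of the 30 tested members (83.3%), against 67% of all genes tested. In bulk RNA, fewer cells in a phase of the cycle and less of a transcript per cell cannot be told apart, and this holds for every member below.

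The counts of calls moved with the libraries used, among the members as among all genes tested. Without sh-Scb replicate 1, 7 members were lower and 2 higher, and without sh-Scb replicate 2, 7 were lower and 3 higher. Of all genes tested in these fits, 5.81% and 5.80% were lower and 6.09% and 5.92% were higher. Without sh-SAPCD2 replicate 1, 15 were lower and 10 higher, and without sh-SAPCD2 replicate 2, 15 were lower and 4 higher, while 20.2% and 17.7% of all genes tested were lower and 22.1% and 17.9% were higher. In each of these fits the lone library of a group was assumed to vary like the pair in the other group. All 16 called members kept their direction in every one of 13 alternative fits, and 5 of them (CCND1, CDK6, CDK2, CCNF and CDK1) stayed past the threshold in every one.

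**Figure D1:**
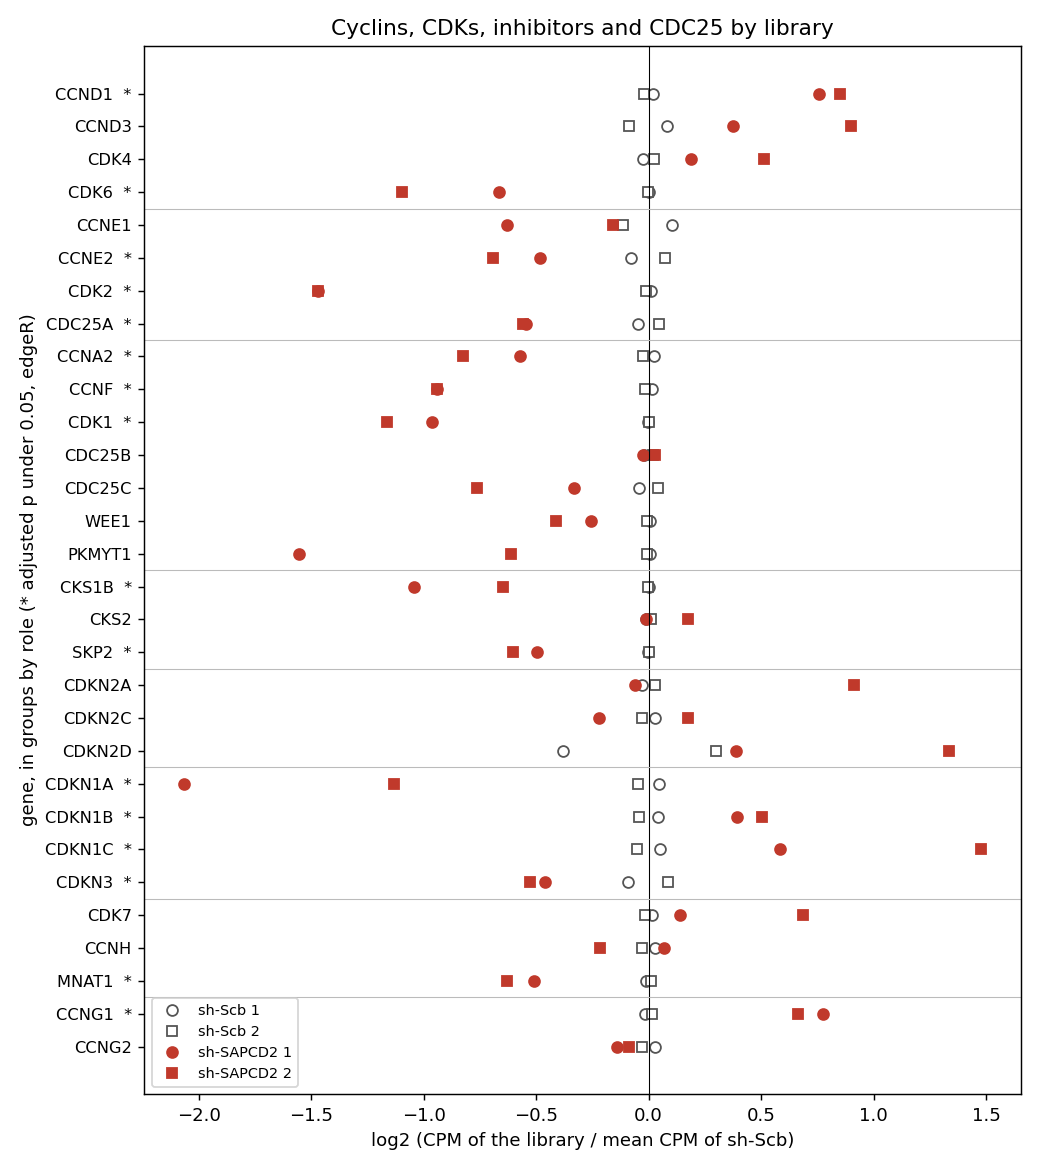
Level of each of the 30 tested members in each library (horizontal axis, log2 of CPM over the mean CPM of sh-Scb), with open gray symbols for the 2 sh-Scb libraries and filled red symbols for the 2 sh-SAPCD2 libraries; lines separate groups by role and asterisks mark an adjusted p under 0.05. The sh-Scb libraries lie close together for most genes, CDK2 and CCNF have coinciding sh-SAPCD2 libraries to the left, and PKMYT1, CDKN2A and CDKN1C have sh-SAPCD2 libraries far apart from each other.

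In the G1 group, the D-type cyclin gene CCND1 rose and the kinase gene CDK6 fell, while CDK4 and CCND3 did not pass. CCND1, which encodes cyclin D1, lies on chromosome 11 from 69641156 to 69654474 (hg38, plus strand) and had 439.9 and 429 CPM in sh-Scb and 733 and 783 CPM in sh-SAPCD2. Both sh-SAPCD2 libraries lay far above both controls. The log2 fold change was 0.80 ± 0.09 (SE, n = 2 per group), with an adjusted p of 0.00430. CDK6, on chromosome 7 from 92604921 to 92836573 (minus strand), had 867 and 865 CPM in sh-Scb and 546 and 405 CPM in sh-SAPCD2. Its log2 fold change was −0.86 ± 0.15, with an adjusted p of 0.0121. The controls almost coincided, and the sh-SAPCD2 libraries differed from each other by more than the controls did.

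CDK4, the other partner of the D-type cyclins, had 231 and 239 CPM in sh-Scb and 268 and 336 CPM in sh-SAPCD2, a log2 fold change of 0.36 ± 0.13 with an adjusted p of 0.0933. CCND3, which encodes cyclin D3, had 25.7 and 22.8 CPM in sh-Scb and 31.4 and 45.2 CPM in sh-SAPCD2, at 0.66 ± 0.20 with an adjusted p of 0.0572. Both had sh-SAPCD2 replicate 2 as the highest library. Without sh-SAPCD2 replicate 1, CCND3 was at 0.89 (adjusted p = 0.00280) and CDK4 at 0.51 (adjusted p = 0.000671), and both passed. Without sh-SAPCD2 replicate 2, CCND3 was at 0.38 and did not pass (adjusted p = 0.0519), and CDK4 was at 0.19 and passed (adjusted p = 0.0154). CCND2, the gene of cyclin D2, had 0 counts in both sh-Scb libraries and 8 and 5 counts in the sh-SAPCD2 libraries. CDK4 shares 1369 exonic bases with TSPAN31 on the opposite strand and CCND1 shares 497 with LTO1. Without knowing whether strand was used in counting, reads from such stretches cannot be told apart.

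At the G1/S step, 3 of 4 members fell and none rose. CDK2, the kinase of cyclins E and A, lies on chromosome 12 from 55966781 to 55972789 (plus strand). It had 71.9 and 70.7 CPM in sh-Scb and 25.8 CPM in each sh-SAPCD2 library, which is 36.2% and 36.1% of the control mean. The difference was far wider than the spread within either group. The log2 fold change was −1.47 ± 0.11, with an adjusted p of 0.00210, the smallest adjusted p among the members, and it lay between −1.498 and −1.45 in the 13 alternative fits. CDC25A, the phosphatase that removes inhibitory phosphates from CDK2 at S-phase entry, had 29.1 and 31.0 CPM in sh-Scb and 20.6 and 20.4 CPM in sh-SAPCD2. It fell by 0.55 ± 0.13 on the log2 scale, with an adjusted p of 0.0274.

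The E-type cyclins that partner CDK2 are encoded by CCNE1 and CCNE2. CCNE2 had 20.0 and 22.1 CPM in sh-Scb and 15.1 and 13.0 CPM in sh-SAPCD2, a log2 fold change of −0.58 ± 0.15 with an adjusted p of 0.0391. CCNE1 had 9.98 and 8.57 CPM in sh-Scb and 6.0 and 8.30 CPM in sh-SAPCD2, at −0.37 ± 0.22 with an adjusted p of 0.263. For CCNE1 the higher sh-SAPCD2 library came close to the lower control, and its value was −0.17 without sh-SAPCD2 replicate 1 and −0.63 without sh-SAPCD2 replicate 2. CCNE2 shares 1629 exonic bases with INTS8 on the opposite strand. Leaving out sh-Scb replicate 1 or 2 took CCNE2 to adjusted p = 0.162 and 0.336 and CDC25A to 0.209 and 0.322, and neither then passed.

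From S phase to mitosis, 3 of 7 members fell and none rose. CDK1, the mitotic kinase, lies on chromosome 10 from 60778331 to 60794852 (plus strand) and had 224 and 225 CPM in sh-Scb and 115 and 100.2 CPM in sh-SAPCD2. Its log2 fold change was −1.06 ± 0.11, with an adjusted p of 0.00342. CCNF encodes cyclin F, which binds no CDK and serves as the substrate receptor of a ubiquitin ligase. It had 70.3 and 68.6 CPM in sh-Scb and 36.2 CPM in each sh-SAPCD2 library, a log2 fold change of −0.94 ± 0.11 with an adjusted p of 0.00438. CCNA2, the gene of the somatic cyclin A, had 163 and 157 CPM in sh-Scb and 108 and 90.2 CPM in sh-SAPCD2, at −0.69 ± 0.12 with an adjusted p of 0.0120. For these 3 genes every sh-SAPCD2 library lay below every control. Without sh-Scb replicate 1 or 2, CCNA2 had adjusted p = 0.0954 and 0.0660 and no longer passed. EXOSC9, which shares 254 exonic bases with CCNA2 on the opposite strand, had 1857 and 2037 counts in sh-Scb and 1206 and 1246 in sh-SAPCD2.

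The kinases that restrain CDK1 did not pass. PKMYT1, the membrane-bound inhibitory kinase, had 40.7 and 40.5 CPM in sh-Scb and 13.8 and 26.6 CPM in sh-SAPCD2. The mean of sh-SAPCD2 was 49.8% of the control mean, but its libraries were far apart, and the log2 fold change of −1.0 ± 0.29 had an adjusted p of 0.0518. PKMYT1 passed in 12 of 13 alternative fits, among them each fit that left out 1 library, with adjusted p between 0.000526 and 0.0128 in those 4. Its value was −0.62 without sh-SAPCD2 replicate 1 and −1.55 without sh-SAPCD2 replicate 2. PAQR4, which shares 1228 exonic bases with PKMYT1 on the opposite strand, had 1230 and 1342 counts in sh-Scb and 653 and 1149 counts in sh-SAPCD2, with the same library lowest. WEE1, the nuclear inhibitory kinase, had 91.6 and 90.7 CPM in sh-Scb and 76.3 and 68.6 CPM in sh-SAPCD2, at −0.33 ± 0.11 with an adjusted p of 0.0733. Without sh-SAPCD2 replicate 1 or 2, WEE1 passed at adjusted p = 0.00247 and 0.0126.

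Of the CDC25 phosphatases that act later in the cycle, CDC25B had nearly the same level in every library and CDC25C did not pass. CDC25B had 128 and 132 CPM in sh-Scb and 128 and 133 CPM in sh-SAPCD2. Its log2 fold change was 0.00 ± 0.10, with an adjusted p of 0.989. CDC25C had 20.2 and 21.4 CPM in sh-Scb and 16.5 and 12.3 CPM in sh-SAPCD2, at −0.53 ± 0.18 with an adjusted p of 0.0819, and it passed at −0.77 without sh-SAPCD2 replicate 1 (adjusted p = 0.00606) but not at −0.33 without sh-SAPCD2 replicate 2 (adjusted p = 0.0739).

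The small CKS proteins, which dock on CDKs, had unlike values. CKS1B, which is also the cofactor that lets the SKP2 ligase recognize the inhibitor encoded by CDKN1B, had 91.2 and 90.8 CPM in sh-Scb and 44.1 and 58.1 CPM in sh-SAPCD2. It fell by 0.83 ± 0.15 on the log2 scale, with an adjusted p of 0.0139. CKS2 had 64.3 and 65.2 CPM in sh-Scb and 64.3 and 73.0 CPM in sh-SAPCD2, at 0.08 ± 0.12 with an adjusted p of 0.626, so its groups overlapped. SKP2, the substrate receptor of the ligase that marks the CDKN1B protein for degradation, had 182.5 and 182.6 CPM in sh-Scb and 129.5 and 120.3 CPM in sh-SAPCD2. Its log2 fold change was −0.55 ± 0.10, with an adjusted p of 0.0129, which became 0.194 and 0.197 without sh-Scb replicate 1 or 2.

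Promoters were looked at because several members fell together. The RefSeq table of promoters (GRCh38.p14, 250 bases before to 50 after the start) held 25 of the 32 members. CCND1, CCND2, CCNE2, CDK2, WEE1, PKMYT1 and CDKN1C had no entry and were not searched. Letters of the E2F site were searched on both strands as TTTCCCGC, TTTGGCGC, TTTCGCGC or TTTGCCGC, those of the cell cycle homology region (CHR), an element of G2 and mitotic genes, as TTTGAA or TTCGAA, and the CCAAT box as CCAAT. In the stretches printed below, no match of one motif overlapped that of another. E2F letters were found in 2 members, CDC25A and CDK1, and in 5.23% of the 11922 promoters of tested genes. CHR letters were found in 7 members and in 10.8% of all promoters. They lay in CCNF, CDK1, CKS1B and CDKN3, which fell, and in CDC25B, CDC25C and CKS2, which did not pass. CCAAT was found in 14 members and 36.5% of all promoters. A match is a description of the letters, not of a bound site.

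The 250 bases before the RefSeq start of 4 members are shown, 5′ to 3′ on the strand of the gene, with the matched letters of E2F, CHR and CCAAT in capitals. CDK1 and CDC25A are shown as the 2 members with E2F letters, and CKS1B and CKS2 as related genes of which 1 fell and the other did not pass.
CDK1 (chr10:60778228-60778477, plus strand): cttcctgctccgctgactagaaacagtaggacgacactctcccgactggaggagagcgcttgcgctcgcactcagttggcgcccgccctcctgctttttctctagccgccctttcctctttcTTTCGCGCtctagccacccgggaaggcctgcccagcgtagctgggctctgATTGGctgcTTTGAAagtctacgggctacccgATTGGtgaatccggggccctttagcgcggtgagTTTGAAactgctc
CDC25A (chr3:48188418-48188667, minus strand): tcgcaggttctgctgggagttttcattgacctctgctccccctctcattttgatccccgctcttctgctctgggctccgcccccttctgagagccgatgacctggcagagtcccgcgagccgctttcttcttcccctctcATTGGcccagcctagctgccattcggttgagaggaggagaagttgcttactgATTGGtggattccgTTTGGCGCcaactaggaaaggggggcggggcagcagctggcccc
CKS1B (chr1:154974431-154974680, plus strand): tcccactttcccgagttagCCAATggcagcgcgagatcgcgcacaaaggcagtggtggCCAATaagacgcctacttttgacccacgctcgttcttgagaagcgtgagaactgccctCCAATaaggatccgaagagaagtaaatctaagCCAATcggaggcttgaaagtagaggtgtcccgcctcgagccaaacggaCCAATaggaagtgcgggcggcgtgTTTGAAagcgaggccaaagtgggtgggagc
CKS2 (chr9:89310945-89311194, plus strand): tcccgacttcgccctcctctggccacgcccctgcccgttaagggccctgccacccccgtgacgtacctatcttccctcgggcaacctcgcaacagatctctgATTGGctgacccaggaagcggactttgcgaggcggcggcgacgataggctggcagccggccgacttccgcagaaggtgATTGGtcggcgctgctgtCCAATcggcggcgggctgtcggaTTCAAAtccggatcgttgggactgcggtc

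In these stretches, E2F letters began 128 bases before the start of CDK1 and 44 bases before that of CDC25A. CHR letters began 30 bases before the start of CKS1B, and on the other strand 29 bases before that of CKS2. The CCAAT box nearest to the start began 54 bases before that of CKS1B and 52 bases before that of CKS2. In all, CKS1B held 5 CCAAT boxes and CKS2 held 3.

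None of the INK4 inhibitors passed. CDKN2C, which encodes p18, had 86.8 and 83.5 CPM in sh-Scb and 73.0 and 96.2 CPM in sh-SAPCD2, with a log2 fold change of −0.01 ± 0.15 and an adjusted p of 0.973. The sh-SAPCD2 libraries lay on either side of the controls, and leaving out either gave 0.17 or −0.22, each past the threshold. CDKN2A, the locus of p16 and ARF, had 8.28 and 8.60 CPM in sh-Scb and 8.09 and 15.9 CPM in sh-SAPCD2, at 0.51 ± 0.32 with an adjusted p of 0.282. CDKN2D, which encodes p19, had 3.22 and 5.15 CPM in sh-Scb and 5.48 and 10.6 CPM in sh-SAPCD2, at 0.94 ± 0.38 with an adjusted p of 0.120. In both, sh-SAPCD2 replicate 2 stood highest. Without sh-SAPCD2 replicate 1, CDKN2A was at 0.91 (adjusted p = 0.00525) and CDKN2D at 1.33 (adjusted p = 0.0211). Without sh-SAPCD2 replicate 2, CDKN2A turned to −0.06 (adjusted p = 0.796) and CDKN2D was at 0.39 (adjusted p = 0.402), and neither passed. CDKN2D also passed at 1.32 without sh-Scb replicate 2 (adjusted p = 0.0103). CDKN2B, the gene of p15, had 2 and 3 counts in sh-Scb and 5 and 3 counts in sh-SAPCD2.

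All 4 members of the group of CIP/KIP inhibitors and CDKN3 passed, and the 3 CIP/KIP genes did not move the same way. CDKN1A, the p53-inducible inhibitor p21, lies on chromosome 6 from 36676460 to 36687337 (plus strand) and had 6.47 and 6.06 CPM in sh-Scb and 1.5 and 2.86 CPM in sh-SAPCD2. Its log2 fold change was −1.51 ± 0.33, the lowest of the members, with an adjusted p of 0.0227. CDKN1C, the inhibitor p57 encoded on chromosome 11 from 2883213 to 2885775 (minus strand), had 5.46 and 5.08 CPM in sh-Scb and 7.89 and 14.7 CPM in sh-SAPCD2. It rose by 1.10 ± 0.31, the highest of the members, with an adjusted p of 0.0475. The sh-SAPCD2 libraries were far apart in both genes, and without sh-SAPCD2 replicate 2 CDKN1C had a log2 fold change of 0.58 with an adjusted p of 0.0552, which did not pass.

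CDKN1B, which encodes p27, was the most abundant of the CIP/KIP transcripts and lies on chromosome 12 from 12685498 to 12722369 (plus strand). It had 128 and 121 CPM in sh-Scb and 164 and 177 CPM in sh-SAPCD2, a log2 fold change of 0.45 ± 0.10 with an adjusted p of 0.0251. CDKN3, a phosphatase that acts on the activating phosphate of CDKs, had 45.7 and 51.5 CPM in sh-Scb and 35.4 and 33.7 CPM in sh-SAPCD2. It fell by 0.49 ± 0.13 on the log2 scale, with an adjusted p of 0.0361. Neither passed without sh-Scb replicate 1 or 2, with adjusted p = 0.288 and 0.407 for CDKN1B and 0.208 and 0.445 for CDKN3.

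The CDK-activating kinase, a complex of CDK7, cyclin H and MAT1 that places the activating phosphate on CDKs, had 1 member that fell. MNAT1, the gene of the assembly factor MAT1, had 26.1 and 26.5 CPM in sh-Scb and 18.5 and 17.0 CPM in sh-SAPCD2, a log2 fold change of −0.57 ± 0.13 with an adjusted p of 0.0285. CDK7 had 10.6 and 10.4 CPM in sh-Scb and 11.6 and 16.9 CPM in sh-SAPCD2, at 0.44 ± 0.21 with an adjusted p of 0.183. CCNH had 38.4 and 36.9 CPM in sh-Scb and 39.5 and 32.4 CPM in sh-SAPCD2, at −0.07 ± 0.14 with an adjusted p of 0.761. The kinase subunit had its highest value, and cyclin H its lowest, in sh-SAPCD2 replicate 2. Without sh-Scb replicate 1 or 2, MNAT1 had adjusted p = 0.234 and 0.263, and did not pass. CDK7 passed at 0.68 without sh-SAPCD2 replicate 1 (adjusted p = 0.0106) and was at 0.14 without sh-SAPCD2 replicate 2 (adjusted p = 0.463).

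The G-type cyclins are not known to drive the cycle, and CCNG1 is a target of p53. CCNG1 had 95.9 and 98.0 CPM in sh-Scb and 166 and 154 CPM in sh-SAPCD2. It rose by 0.72 ± 0.10 on the log2 scale, with an adjusted p of 0.00648, while CDKN1A, another p53 target, fell. Without sh-Scb replicate 1 or 2, CCNG1 had adjusted p = 0.0926 and 0.0753 at log2 fold changes of 0.71 and 0.74. CCNG2 had 48.2 and 46.3 CPM in sh-Scb and 42.8 and 44.5 CPM in sh-SAPCD2, at −0.11 ± 0.11 with an adjusted p of 0.502.

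Levels were compared between genes as CPM per kb of exons. In sh-Scb the order of the means began with CKS2 at 105 ± 1.04, CCND1 at 91.2 ± 1.66, CDK4 at 76.0 ± 1.76, CDK6 at 70.8 ± 0.139, CCNA2 at 58.2 ± 1.41 and CDK1 at 57.4 ± 0.0869 CPM per kb (SD, n = 2). Only CCNA2 and CDK1 overlapped between neighbors in this upper stretch. The 4 lowest tested members were CDKN2D, CDKN2A, CDKN1C and CDKN1A, at 2.09 to 2.78 CPM per kb, and neighbors among them overlapped. In sh-SAPCD2, CCND1 stood first at 159 ± 7.35, ahead of CKS2 at 111 ± 10.04, CDK4 at 97.5 ± 15.5 and CCNG1 at 51.7 ± 2.84 CPM per kb. CDK2 moved from position 12 to 16, PKMYT1 from 17 to 26, CCNG1 from 9 to 4 and CCND3 from 25 to 15. With the longest transcript in place of the union of exons, CDK4 stood highest in sh-Scb, followed by CDK1 and then CKS2, so the order between genes depends on the length used.

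**Figure D2:**
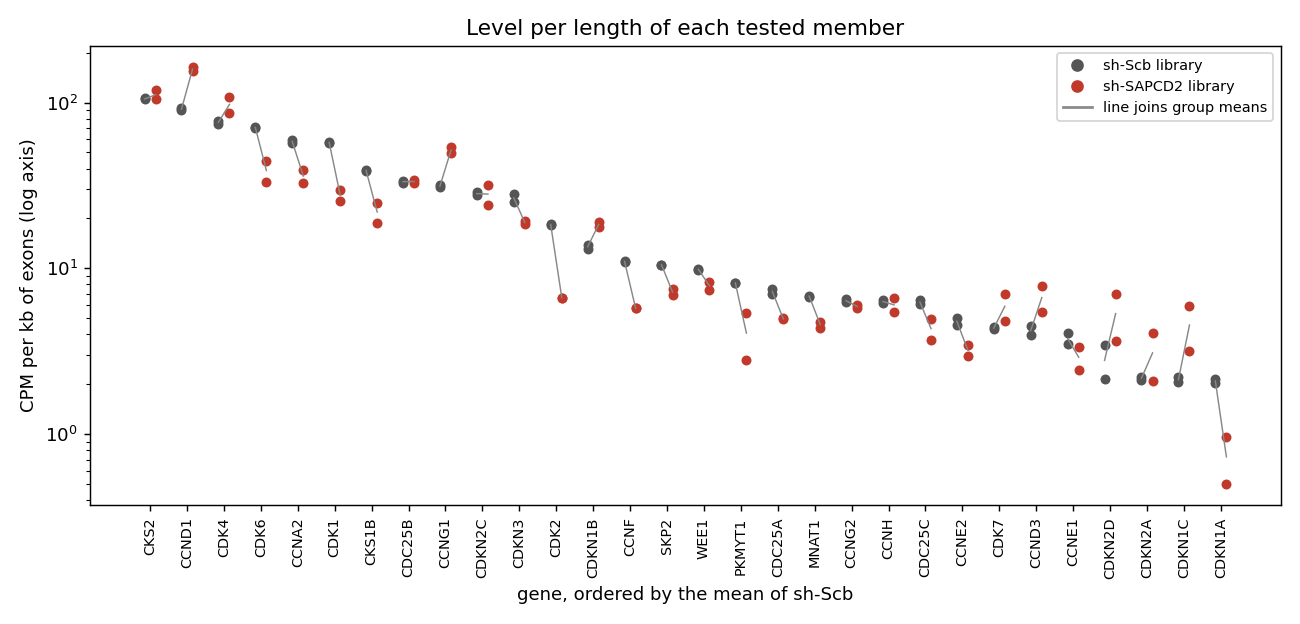
Level per length of the 30 tested members (vertical log axis, CPM per kb of exons) in each library, ordered by the sh-Scb mean, with gray points for sh-Scb, red points for sh-SAPCD2 and lines between group means. CKS2, CCND1, CDK4 and CDK6 form the upper end in sh-Scb, and CDK6, CDK1 and CDK2 drop in sh-SAPCD2. CDKN1A has the lowest mean in both groups, but in sh-Scb its libraries overlap those of CDKN1C.

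The makeup of the kinases differed between the groups. Shares were taken on the union of exons, and their size and order depend on the length used. With the longest transcript, CDK1 stood at position 2 and CDK6 at position 6 of the members in sh-Scb. The summed level of CDK1, CDK2, CDK4 and CDK6 was 223 ± 1.49 CPM per kb in sh-Scb and 171 ± 4.61 CPM per kb in sh-SAPCD2 (SD, n = 2). CDK4 made up 33.7% and 34.5% of that sum in sh-Scb and 51.7% and 62.4% in sh-SAPCD2. CDK6 made up 32% and 31.6%, then 26.7% and 19.0%. The share of CDK1 was 25.9% and 25.7% in sh-Scb and 17.6% and 14.7% in sh-SAPCD2, and that of CDK2 was 8.36% and 8.14%, then 3.97% and 3.81%. None of these shares overlapped between the groups. CCND1 held 95.4% to 96.6% of the D cyclin sum in all 4 libraries, and this sum was 95.4 ± 2.02 CPM per kb in sh-Scb and 166 ± 9.02 CPM per kb in sh-SAPCD2.

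The shares among the inhibitors and the CDC25 phosphatases depend on the length used as well. CDKN2C held 83.0% to 87.0% of the INK4 sum in sh-Scb and 74.1% to 80.7% in sh-SAPCD2. CDKN1B held 76.1% and 76.3% of the CIP/KIP sum in sh-Scb and 82.8% and 73.6% in sh-SAPCD2, so its share overlapped between the groups although its level rose. The share of CDKN1A was 11.9% and 11.8% in sh-Scb and 2.34% and 3.68% in sh-SAPCD2. That of CDKN1C was 12.1% and 11.9%, then 14.9% and 22.8%. In the CDC25 sum, CDC25B held 70.8% to 71.5% in sh-Scb and 76.7% to 79.8% in sh-SAPCD2, and CDC25A 15.3% to 15.7%, then 11.6% to 11.7%.

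Ratios within a library do not depend on its scaling. Their size does depend on the exon lengths used, and so does the side of 1 on which a ratio lies. For CDKN1B the union of exons has 9255 bases and the longest transcript 4335, and for CDK2 the values are 3887 and 2598. For a ratio of single genes, the log2 difference between the groups does not depend on length. The ratio of CDKN1B to CDK2, an inhibitor to its kinase, was 0.749 and 0.719 in sh-Scb and 2.67 and 2.88 in sh-SAPCD2, a log2 difference of 1.92. CDK6 to CDK4 was 0.948 and 0.915 in sh-Scb and 0.515 and 0.305 in sh-SAPCD2, a log2 difference of −1.23. For CKS2 to CKS1B the values were 2.68 and 2.73, then 5.53 and 4.77, a log2 difference of 0.93. In these pairs, as in CCNG2 to CCNG1, CDC25B to CDC25C, CDKN2C to CDK4 and WEE1 to CDC25A, the groups did not overlap. CCND1 to all D cyclins, CCNE2 to CCNE1 and PKMYT1 to CDC25C overlapped. An exact two-sided permutation test over 2 against 2 libraries cannot go below p = 0.333, so these ratios are a description.

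**Figure D3:**
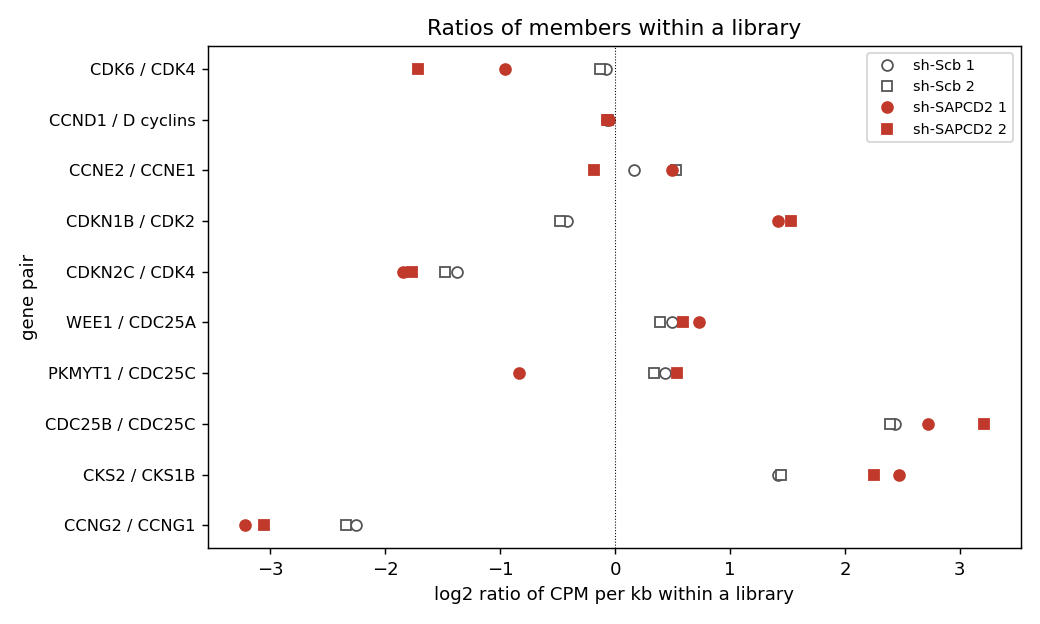
Ratio of 2 members within each library (horizontal axis, log2 of the ratio of CPM per kb) for 10 pairs, with open gray symbols for sh-Scb and filled red symbols for sh-SAPCD2. CDKN1B over CDK2 is higher in both sh-SAPCD2 libraries than in both sh-Scb libraries, and CDK6 over CDK4 is lower. PKMYT1 over CDC25C has its sh-SAPCD2 libraries on both sides of sh-Scb. The position of a pair relative to 0 depends on the exon lengths used.

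Other genes of the cyclin and CDK families and of the pathway were counted from lists compiled from general knowledge. These lists were chosen with earlier results of these data known. Of 4 B-type and germline A cyclins, 2 fell: CCNB1, a mitotic partner of CDK1, had 164 and 165 CPM in sh-Scb and 104 and 99.6 CPM in sh-SAPCD2, and CCNB2 had 120.4 and 128 CPM, then 74.0 and 69.4 CPM. Their log2 fold changes were −0.69 ± 0.10 (adjusted p = 0.00659) and −0.79 ± 0.10 (adjusted p = 0.00581). Of 12 tested cyclins of transcription and other roles, 1 fell (CCNK, −0.89) and 2 rose (CCNJ, 0.69, and CCNI, 0.40), with a list median of 0.08. Of 20 transcription and other CDKs, 0 fell and 1 rose (CDK16, 0.51), with a median of −0.02. The 30 members had 12 that fell and 4 that rose, with a median of −0.35. Over all genes tested, 12.5% were lower and 12.4% higher at the same threshold. The lists differed in their counts, and no test of that difference was run.

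Among 13 pocket proteins, E2F factors and DP partners, which link CDK activity to transcription, 6 fell and 2 rose, with a list median of −0.48. The shares over all genes tested were 12.5% lower and 12.4% higher. The lowest were the atypical E2F genes E2F8 at −2.45 and E2F7 at −1.28, followed by RBL1 at −1.03 and E2F2 at −0.99, and E2F5 rose by 0.78. Among 12 genes of the ubiquitin ligases of the cycle, 4 fell and 2 rose, with a list median of 0.00. DTL, a receptor of the CUL4 ligase that degrades p21, was at −1.67, FBXO5, an inhibitor of the anaphase-promoting complex, at −0.94, and CDC20, its activator, at −0.77, while FBXW7, a receptor for cyclin E, rose by 0.79 and CUL4A by 0.52.

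**Figure D4:**
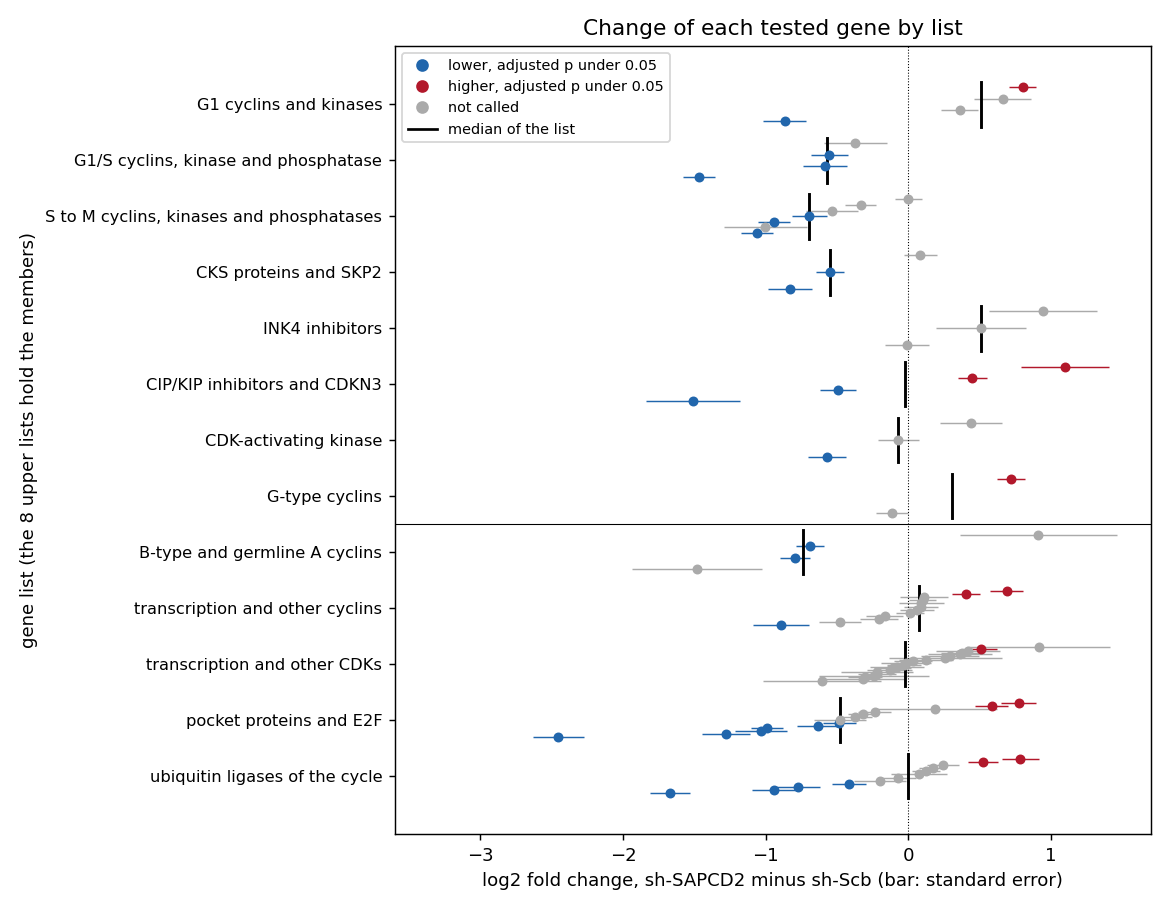
Log2 fold change of each tested gene (horizontal axis, sh-SAPCD2 minus sh-Scb, with its standard error) in the 8 lists of members above the line and 5 comparison lists below it; blue marks genes that fell, red those that rose, gray those that did not pass, and a black bar is the median of a list. The G1/S, S to M and CKS lists have medians of −0.57, −0.69 and −0.55, and the list of transcription and other CDKs is centered at −0.02.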

How the data were processed

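Total RNA of SK-N-BE(2) cells carrying sh-Scb or sh-SAPCD2 (2 libraries each) was sequenced by the authors as paired-end reads, aligned to hg38 with HISAT2 2.2.0 and summarized with StringTie. The authors deposited raw whole-number counts per Ensembl gene, not scaled for library size. How abundances became counts, the Ensembl release, strand use and the treatment of multi-mapped reads are not given in the sources used here.

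Groups came from the labels. Counts were TMM-scaled and tested with edgeR 4.0.16 (R 4.3.3; glmQLFit, glmQLFTest, n = 2 per group) after filterByExpr (minimum count 10, total 15), which kept 18779 genes; p-values were adjusted over all of them by Benjamini-Hochberg. The biological coefficient of variation was 15.4%. The libraries of a group correlated at r = 0.986 (sh-Scb) and 0.980 (sh-SAPCD2) across genes. Depth was 25347900 to 31850997 counts per library. GENCODE 44 gave symbols, positions and exon lengths for 87.3% of the identifiers, and promoters came from RefSeq (GRCh38.p14). A fold change is sh-SAPCD2 over sh-Scb on the log2 scale. The scripts were tested on simulated data.

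The members and lists were chosen with earlier results of these data known. Every member was described, with at most 5 genes of each comparison list, those with the smallest p. The composition of summed levels was added after the values were seen. The fits were repeated with DESeq2 1.42.0, with its size factors or library totals as scaling, with no filter or a 1 CPM minimum mean, with the replicate number as block, with a loess correction for GC content and length (span 0.3) with and without that block, on protein-coding genes, with a fold change threshold, and without each library in turn. Longest transcripts and a wider promoter window were also tried.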

Additional observations from a re-analysis of the deposited data

How the results depend on the processing

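Of the main counts of 12 members lower and 4 higher, no filter on low counts left 6 and 2 and an absolute log2 fold change over 1 left 3 and 1. Of all genes tested, 3.38% were lower and 3.09% higher without the filter, and 5.15% and 4.69% with the fold change threshold. DESeq2 gave 7 higher, and the correction for GC content and length with the replicate block gave 8 higher. Leaving out 1 library at a time gave 7 to 15 lower and 2 to 10 higher. SAPCD2 itself stayed at −0.91 without the filter, with an adjusted p of 0.0749 in a range from 1.78e-05 to 0.0749 over 13 alternatives. In the window from 500 bases before to 100 after the start, 5 of the 25 members with a promoter held E2F letters, beside 8.57% of all promoters. No called member turned its direction in any fit, 11 of 16 lost the call in at least 1, and 9 of 14 uncalled members passed in at least 1. The share of all genes tested that lost or gained a call in this way was not counted. The cause of these changes was not tested.

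Libraries sharing a replicate number deviated from the group means with a correlation of r = −0.0188, which gave no sign of pairing by number. With 2 libraries per group, this value cannot show that the libraries were not paired. With the replicate block, 14 members were lower and 6 higher, beside 14.4% and 15.2% of all genes tested. Members near the floor of 3 counts per library, CCND2 and CDKN2B, fell under the filter on low counts at this depth.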

Other observations

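The hairpin against SAPCD2 that the study lists first would pair through its guide seed with the 7-mer ACCTTCA in a 3′ UTR. None of the 12 members that fell holds it in the annotated 3′ UTR, and CCNG1, which rose, and CCNG2, which did not pass, hold 1 each. Among all genes tested it was present in 14.9% of those that fell, 12.4% of those that rose and 12.1% of those not called. Other 7-mers of the hairpin were noticed on these data. TCCACCT pairs with a stretch of the guide arm that overlaps its seed and extends past it, and AGAGGTC pairs with the start of the opposite arm. Each was also searched with the first base dropped and an A added at the end. At least 1 of these was present in CDK6, CDK2, CCNF and CDKN1A, which is 33.3% of the members that fell, in 0 of the 4 that rose and in 31.2% of the others. The shares over all genes tested were 47.0% of those that fell, 27.2% of those that rose and 32.8% of those not called. Because these 7-mers were noticed on the same data, their shares are a description and no independent test. The length of the 3′ UTR was not taken into account. Which hairpin was in the sequenced cells is not given in the labels, and the part of such sites in the results was not tested.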
